A study of Mus musculus with 38 samples.

Results

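Tagged HSF2 expressed in cells that lack the endogenous gene was compared with endogenous HSF2 in asynchronous mouse embryonic stem cells, site by site. Both profiles were made by CUT&Tag with the same antibody against HSF2. All 2135 distinct intervals of the HSF2 score table, which lists 2141 with 6 exact repeats, entered the comparison without a further choice by signal. By the study's methods, they are peaks called in asynchronous and mitotic HSF2 profiles and then combined. Endogenous signal thus entered the choice of sites, and no peak calls from the rescue are described. Both columns were above 0 at 2122 sites, where a log2 ratio could be taken. The other 13 were listed at 0 in the rescue.

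The endogenous group consists of 2 libraries of asynchronous JM8 mouse embryonic stem cells, labelled HSF2. The rescue group consists of 2 libraries of asynchronous cells of the line labelled Jm8, HSF2 KO, with the sample label HSF2-OE, also made with the HSF2 antibody. By the study's methods, the knockout cells came from picked colonies after Cas9 removal of the Hsf2 locus. The rescue construct was a stably integrated Piggybac vector in which the EF1α promoter drives HSF2 with an N-terminal Halo tag. The label does not name the tag. Genotype, clone, promoter, expression level and tag change together between the groups, so their parts in a difference cannot be told apart. The study as a whole asked how the heat shock factors HSF1 and HSF2 interact with DNA in mitosis, with 38 libraries in 19 conditions. No site of the list lies at an Hsf2 start, so these values do not check the deletion.

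HSF2 is a transcription factor of the heat shock factor family. Trimers of these factors bind heat shock elements, which are repeated, alternately inverted GAA units in promoters and enhancers. The best known targets are genes of molecular chaperones, which fold other proteins and are induced by heat and other stress, and HSF2 also acts without stress in development and in germ cells.

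In CUT&Tag, an antibody directs a Tn5 transposase to a protein on DNA, and adapters are inserted beside it. Each value below is the mean scaled coverage over the interval of a site, averaged by the authors over both libraries of a group. Single libraries cannot be seen in it, so no difference can be set against a spread between replicates and no test was made. The 95% intervals below cover the choice of sites only. The depth behind the endogenous and rescue values is not given in the sources used here. Scaling used reads of spiked-in Drosophila cells. The methods also describe giving asynchronous samples a factor of 1, so it is unclear how far levels of different tracks can be compared. Ranks within a track, where 1 is the highest of the 2135 sites, and the fold over the median site of the same track do not depend on this. Neither was corrected for background, because HSF2 CUT&Tag in the knockout alone was not analysed here.

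The 2 profiles differed more at sites that hold a heat shock element than at sites without one. An element is here 3 GAA units in alternating orientation with 2 free bases between neighbours (GAANNTTCNNGAA, or TTCNNGAANNTTC on the same strand). The pattern was searched on both strands of the GRCm38 reference sequence, and overlapping matches were counted separately. Of the 2131 sites whose reference sequence was at hand, 300 held it at least once (14.1%, Wilson 95% interval 12.7% to 15.6%). Stretches of the same width 2 kb upstream and downstream held one in 4.27% of cases each. Among 32851 RefSeq promoters of 300 bp, 0.603% held one. The sites are much wider, with a median of 2395 bp, so the promoter share cannot be set directly against theirs. The elements at 7 sites that were among the 50 highest for endogenous HSF2 and fell far in the ranking of the rescue are shown here, each as 29 bases of the plus strand with the GAA and TTC units in capitals.
Hsph1: actgaggaGAActTTCcaGAAtctgcagc
Stip1: cctgttctTTCtgGAAatTTCcacaactc
Hsp90aa1: agcctccgGAAccTTCcgGAAgaaccctc
Hspa8: gcgagcgtGAAagTTCcaGAAcgccgcgg
Hspd1: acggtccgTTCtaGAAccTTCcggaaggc
Dnaja1: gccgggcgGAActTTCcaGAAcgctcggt
Spo11: cagatgttTTCtaGAAtgTTCcaggcgcc

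These stretches were placed in mm10 (GRCm38) against the transcript starts of the GENCODE M21 annotation. The Hsp90aa1 stretch, chr12:110696379-110696407, lies across the transcript start of this minus strand gene. The Hsph1 stretch, chr5:149636280-149636308, lies in a UTR with its element 38 bp downstream of the start, on a minus strand gene. The Hspa8 stretch, chr9:40801055-40801083, lies in a UTR with its element 79 bp downstream of a start on the plus strand, and the site holds 2 elements. The Dnaja1 stretch, chr4:40722526-40722554, also lies in a UTR, 54 bp downstream of a plus strand start. Both the Stip1 stretch (chr19:7040271-7040299) and the Hspd1 stretch (chr1:55088051-55088079) lie outside the transcripts of their minus strand genes, with the element 312 bp and 35 bp upstream of the nearest start. The Hspd1 site holds a second, overlapping match. The Spo11 stretch, chr2:172980176-172980204, is intronic, 335 bp downstream of a plus strand start.

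The 2 profiles ranked the same sites in largely different order. Over all 2135 sites the Spearman rho between endogenous and rescue signal was 0.17. A further track came from the same knockout line with full-length Halo-HSF2 that carries an HA tag, a separate construct, and was made with anti-HA. Between it and the rescue rho was 0.56 over the same sites. Between endogenous HSF2 in asynchronous and in mitotic cells (nocodazole at 50 ng/ml for 6 h) it was 0.49. All these pairs share sites, widths and base composition, and no p was taken from them.

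The rescue signal was lower at most sites, and it spread less around its median except at the highest sites. The median site had a signal of 4.14 for endogenous HSF2 and 1.58 for the rescue. The signal exceeded by the highest 10% of sites was 3.26 times the median site for endogenous HSF2 and 2.14 times for the rescue. The single highest signals were 142 and 150. The median log2 ratio of rescue over endogenous signal was −1.29 (95% interval over sites −1.34 to −1.22, n = 2122), with quartiles of −2.28 and −0.55. The rescue was the lower signal at 88.6% of sites. It was lower by at least 1 on the log2 scale at 1254 sites (59.1%) and higher by at least 1 at 41 (1.93%). The level of this shift rests on the scaling of the 2 tracks, whereas the order of sites does not.

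Sites were sorted by ranks alone. A site in the highest 25% of both tracks was called kept, and 174 were (8.15%). A site in the highest 25% for endogenous HSF2 and the lower 50% for the rescue was called lost, and 260 were (12.2%). A site in the highest 25% for the rescue and the lower 50% for endogenous HSF2 was called gained, and 185 were (8.67%). The last site inside the highest 25% had a signal of 7.13 in the endogenous track and the first outside 7.12, and in the rescue these signals were 2.36 for both. Kept and lost sites started from like endogenous signals, with medians of 11.8 and 12.1. In the rescue their medians were 3.66 and 0.941, and for gained sites the signal was 2.96 in the endogenous track and 2.81 in the rescue.

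Heat shock elements were most frequent among the lost sites. An element was present in 132 of the 260 lost sites (50.8%, Wilson 44.7% to 56.8%), in 18 of the 172 kept sites with sequence (10.5%, 6.72% to 15.9%) and in 3 of the 185 gained sites (1.62%, 0.553% to 4.66%), beside 14.1% of all sites. With 1 mismatch allowed at an outer base of 1 unit, these shares were 75.8%, 27.9% and 24.3%, beside 41.1% of all sites. Kept and lost sites all belong to the 533 highest endogenous sites. Of the 531 of these with sequence, 33.1% held an element by the strict pattern (Wilson 29.3% to 37.3%). This share lies below the interval of the lost sites and above that of the kept. Gained sites belong to the 533 highest rescue sites, where the strict share was 5.08% (3.52% to 7.30%). With 1 mismatch the shares of these parent sets were 56.9% and 26.0%. Windows of equal width 2 kb upstream of the lost sites held an element in 5.77% of cases. In the lost sites with exactly 1 element (n = 105), the element lay at a median of 291 bp from the centre of the site, and in 76 of them it lay nearer to the centre than to the edge. Over all 255 sites with exactly 1 element the median was 393 bp, and in 167 the element lay nearer to the centre.

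**Figure D1:**
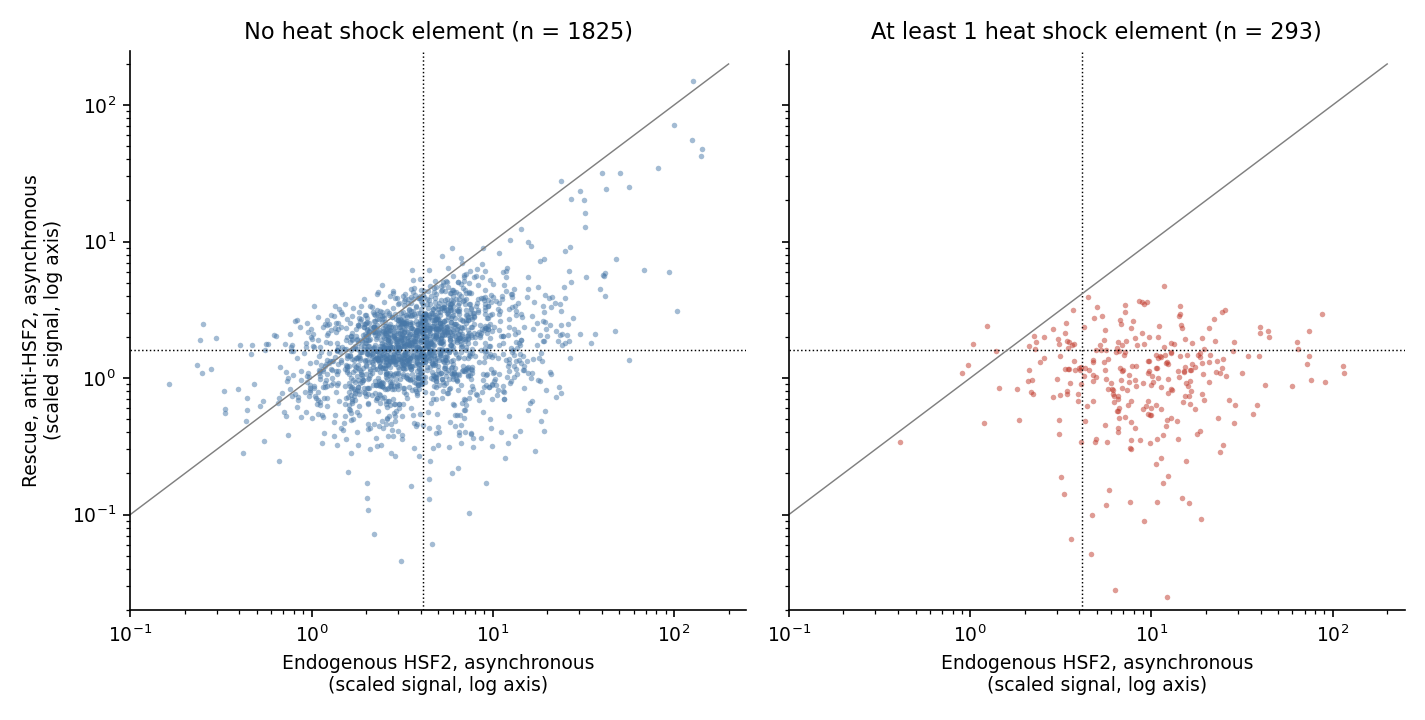
Endogenous HSF2 signal (horizontal) against rescue signal with anti-HSF2 (vertical), both as mean scaled coverage on log axes, for sites above 0 in both tracks without (left) and with (right) a heat shock element. Dotted lines mark the median of each track and the grey line equal signal. Sites with an element spread far to the right while most stay near or under the rescue median, and the sites highest in both tracks hold none.

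The endogenous signal was higher with more elements, and the rescue signal was not. At the 1831 sites without an element the median signal was 3.82 for endogenous HSF2 and 1.69 for the rescue. At the 255 sites with 1 element the medians were 7.96 and 1.06, and at the 45 sites with 2 or more they were 14.3 and 1.19. Thus the median log2 ratio was −1.11 (95% interval over sites −1.19 to −1.06) without an element, −3.05 (−3.27 to −2.86) with 1, and −3.82 (−4.54 to −3.22) with 2 or more. The median rank went from 451 in the endogenous track to 1557 in the rescue for sites with 1 element. For sites without one, the median rank was 1169 and 987.

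The same held for sites of like endogenous signal. In the highest 25% of the endogenous track, the 176 sites with an element had a median of 3.37 times the median site, and the 355 without had 2.69 times. In the rescue the medians of these sites were 0.689 times (95% interval over sites 0.595 to 0.767) and 1.33 times (1.25 to 1.46) its median site. Of the 176 with an element, 75.0% were lost and 10.2% kept, and of the 355 without, 36.1% were lost and 43.4% kept. In the next 25% of the endogenous ranking the rescue stood at 0.627 times its median site with an element and at 1.25 times without, and in the 25% below that at 0.738 and 1.04 times. In the lowest 25%, with 21 and 512 sites, the intervals of the rescue medians overlapped (0.528 to 1.09 and 0.781 to 0.891).

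**Figure D2:**
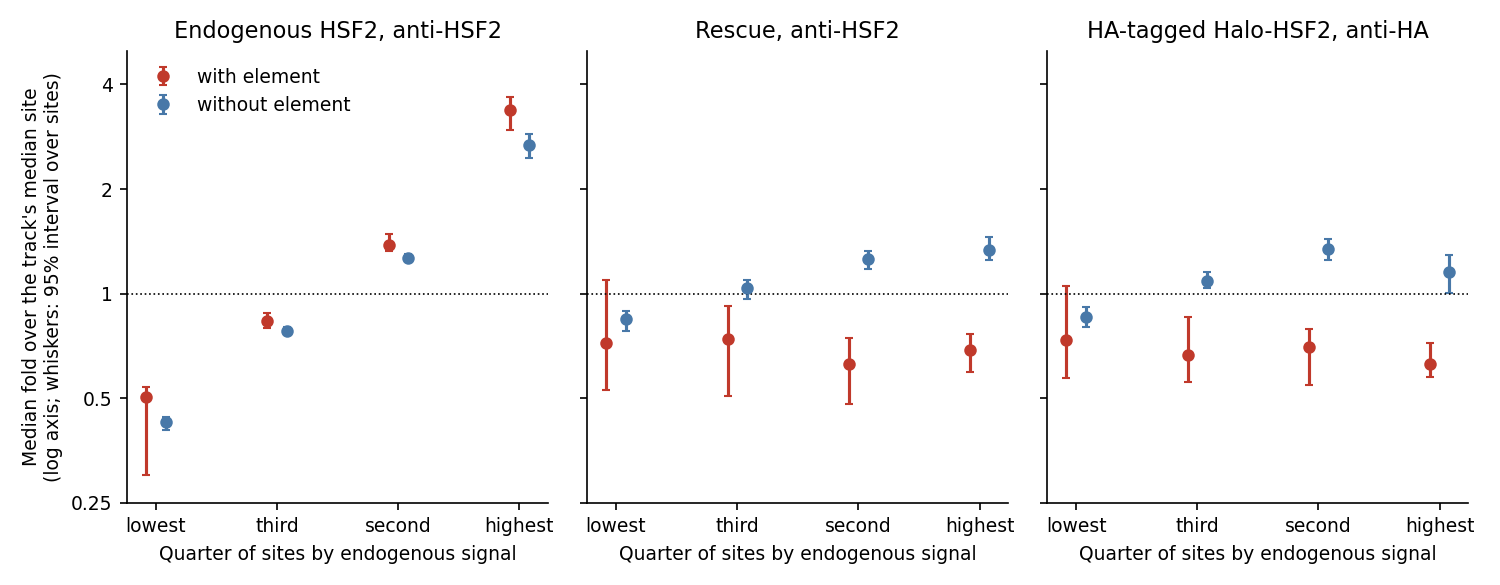
Median signal, as fold over the median site of the same track (log axis), of sites with and without a heat shock element in each 25% of the endogenous ranking, for endogenous HSF2 (left), the rescue with anti-HSF2 (middle) and HA-tagged Halo-HSF2 with anti-HA (right). Whiskers are 95% order-statistic intervals over sites. In the tracks of both Halo-HSF2 constructs the sites with an element stay at 0.627 to 0.738 times the median site at all 4 levels of endogenous signal, while those without an element stand above them.

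Within the 300 sites with an element, the endogenous ranking carried over to mitotic cells (rho 0.75) but not to the rescue (rho 0.03). The rescue and anti-HA tracks still had a rho of 0.54 among these sites. Over the 1831 sites without an element, endogenous HSF2 and the rescue had a rho of 0.31. These are descriptions of sites in averaged tracks.

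The sites with the largest falls in rank included those of 5 chaperone genes. Of the 34 sites at coding starts among the 100 highest endogenous sites, the 8 with the largest fall in rank were those at Ly6k, Stip1, Hsp90aa1, Spo11, Dnaja1, Ccdc158, Hsph1 and Hspd1. All 8 held an element. Stip1, the adaptor that links HSP70 to HSP90, had a signal of 90.8 for endogenous HSF2 and 0.928 in the rescue, and its rank went from 10 to 1668. Hsp90aa1, the stress-inducible cytosolic HSP90, went from 75.7 to 0.973, and from rank 13 to 1630. These signals stood at 21.9 and 18.3 times the median site in the endogenous track and at 0.588 and 0.616 times in the rescue, below most sites of the list. The study shows browser tracks of Halo-HSF2 at Hsp90aa1. It states that the tagged protein can bind at specific sites, with a weaker signal than the endogenous one. A mean over a wide interval cannot show whether a narrow peak lies within it. The Hsp90aa1 site is 11887 bp wide, and with the signal summed over the site (mean times width) its rank went from 1 to 130, a change of 6.04% of sites in place of 75.7%, so that it counted as kept. For Stip1 the change was then 54.3% in place of 77.7%. The log2 ratio of a site does not depend on its width.

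Hsph1, an HSP110 that exchanges the nucleotide of HSP70, went from 114 to 1.24 and from rank 6 to 1384. Hspd1, which encodes mitochondrial HSP60 and shares its site with the co-chaperonin gene Hspe1, went from 71.9 to 1.28 and from rank 16 to 1356, or from 8 to 525 and into the kept sites with the summed signal. Dnaja1, an HSP40 co-chaperone, went from 31.7 to 1.08 and from rank 48 to 1531. The other 3 genes are no chaperones. Spo11, whose product makes the DNA breaks of meiotic recombination, had the fifth highest endogenous signal at 115 and rank 1518 in the rescue at 1.09. Ly6k, a gene of a membrane-anchored protein of the Ly6 family, went from rank 57 to 1870, and Ccdc158 from rank 89 to 1504.

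Among the 100 highest endogenous sites, the 3 largest falls away from coding starts were at chr8:18479556-18480566, chr4:154576752-154577696 and chr8:70272112-70274554. Their endogenous signals were 21.2, 23.9 and 24.8. In the rescue the first was listed at 0 and the others had 0.286 and 0.325, with ranks from 2064 to 2129. The last 2 sites hold 2 elements each and the first holds none.

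The HSP70 and HSP110 list had 6 sites at coding starts, covering 7 of its 15 genes. All 6 were lower in rank in the rescue, 4 were lost and none was kept, beside 12.2% of all sites lost. Their median log2 ratio was −3.43, beside −1.29 for all sites. Hspa8, the constitutive HSC70, went from 74.3 to 1.45 and from rank 14 to 1180. Its site is 10517 bp wide, and with the summed signal the rank went from 3 to 65 and the site counted as kept. The sites at Hspa1b and at Hspa1a with Hspa1l, the inducible HSP70 genes, had endogenous signals of 14.2 and 12.3 and rescue signals of 1.74 and 1.28. Their ranks went from 201 to 946 and from 257 to 1352. Hspa1a and Hspa1b are near-identical copies, and how reads between them were assigned is uncertain. Hspa4l, an HSP110 relative, went from rank 429 to 1868, and Hspa9, the mitochondrial HSP70, from 916 to 1277.

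The HSP90 list had 8 sites for 8 of 18 genes, 5 of them in the highest 25% of the endogenous track. Of the 8, 3 were lost and 1 was kept, with a median log2 ratio of −4.13. The kept site was that of Hsp90ab1, the constitutive cytosolic HSP90. Its signal was 104 for endogenous HSF2 and 3.10 in the rescue, 25.1 and 1.96 times the median site, and its rank was 7 and 269. The site holds no element by the strict pattern and 2 with 1 mismatch. So Hsp90ab1 stayed in the highest 25% while its ratio (log2 −5.07) was among the low ones. The HSP90 activators Ahsa1 and Ahsa2 had like endogenous ranks, 168 and 151, and rescue ranks of 1935 and 573. The co-chaperones Chordc1, Fkbp4 and Ptges3 had endogenous ranks of 624, 689 and 1107 and rescue ranks of 1937, 1403 and 821. With the summed signal Fkbp4 went from 178 to 367.

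**Figure D3:**
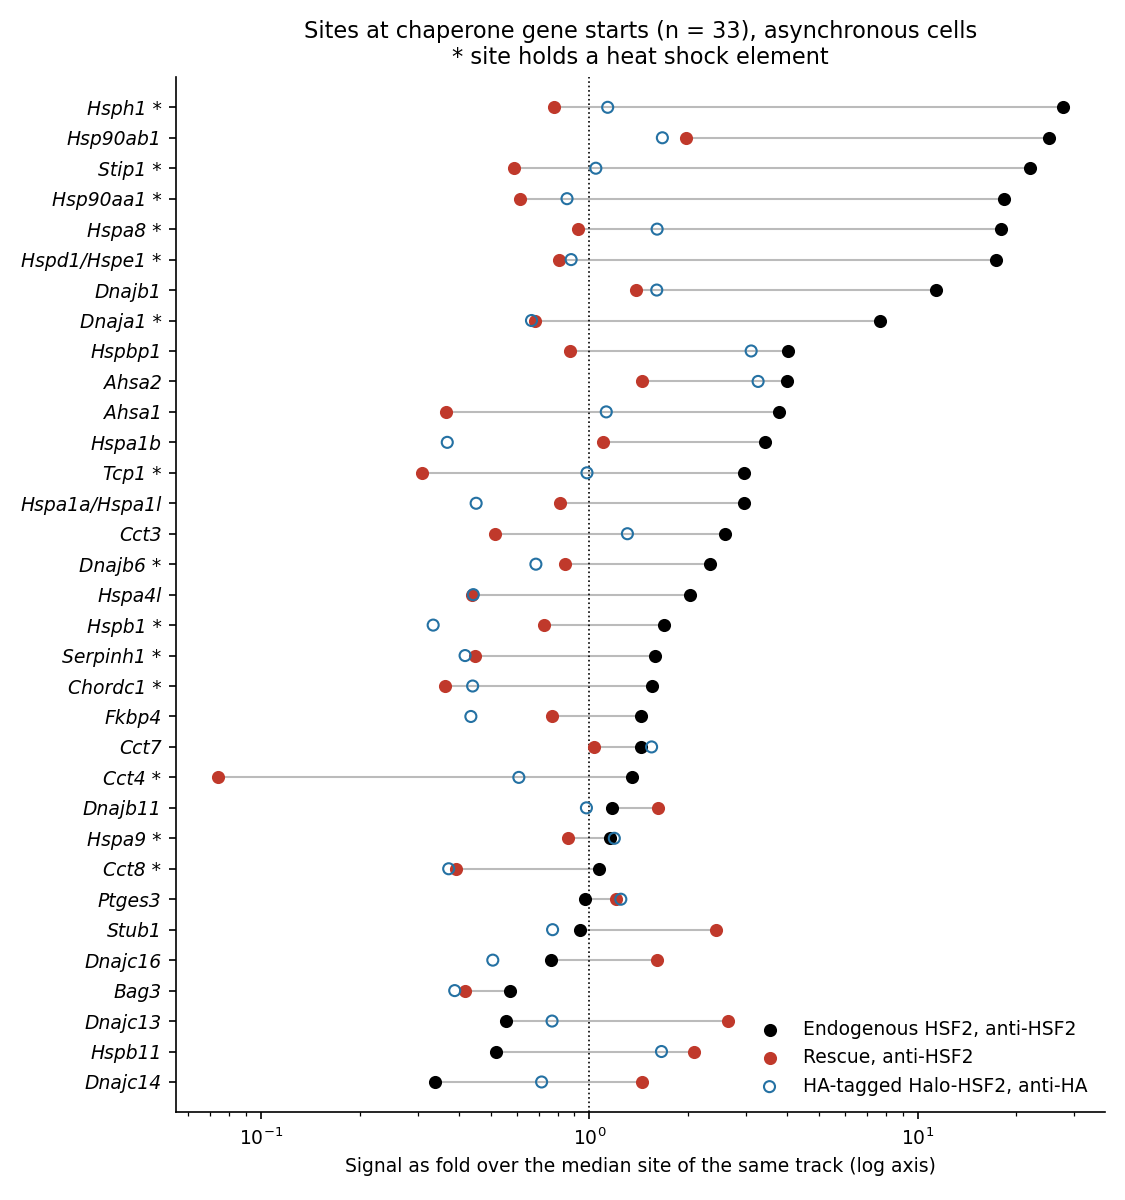
Signal at the 33 sites at starts of genes of the 5 chaperone lists, as fold over the median site of the same track (log axis), for endogenous HSF2 (black), the rescue with anti-HSF2 (red) and HA-tagged Halo-HSF2 with anti-HA (open blue), one line per site. The 6 highest endogenous sites stand at 17.4 to 27.6 times the median site in the endogenous track and at 0.588 to 1.96 times in the rescue.

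The chaperonin list had 6 sites, all lower in rank and 3 of them lost, with a median log2 ratio of −4.18. Its subunits of the cytosolic TRiC complex went from rank 256 to 1984 (Tcp1), from 316 to 1780 (Cct3) and from 691 to 1029 (Cct7). The HSP40 and BAG list was mixed, with 3 of its 10 sites lost, 3 gained and none kept. Besides Dnaja1, Hspbp1 (149 to 1255) and Dnajb6 (354 to 1309) were lost. Dnajb1, the HSP40 partner of stress-induced HSP70, had signals of 47.2 and 2.20 and went from rank 25 to 631, short of the lower 50%. The 3 gained sites were at Stub1, Dnajc16 and Dnajc13, named here after their values were seen. The list named small HSP, whose members are not all of that family, had 3 sites. Hspb1 had ranks of 549 and 1464, Serpinh1 604 and 1858, and Hspb11 was gained (1747 to 233).

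Over the 5 chaperone lists together, 33 sites were found at starts of 35 of 95 genes. Of these, 13 were lost (39.4%), 1 was kept and 4 were gained, and 14 held an element. The lost share of 12.2% over all sites and the median log2 ratio of −3.21 beside −1.29 describe how they differ from the list of sites as a whole, and no set test was made. With the summed signal 10 of the 33 were lost and 6 kept. Of all sites sorted in this way, the element was in 54.7% of the lost, 19.4% of the kept and 0.901% of the gained. Without the sites of these lists, 50.2% of the lost sites still held an element, beside 50.8% with them.

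The other lists had few sites or medians nearer to that of all sites. The 17 sites of cytosolic ribosomal genes had a median log2 ratio of −1.34, with 1 lost and 1 gained. Rpl6 was the lost site (rank 293 to 1735), and Rpl38 and Rps13 had endogenous ranks of 814 and 913 and rescue ranks of 1047 and 1880. The 7 sites of mitochondrial ribosomal genes had a median of −1.76, with 2 lost, Mrpl18 at the start it shares with Tcp1 and Mrps2 (489 to 2031), and 1 gained, Mrps18b beside Ppp1r10 (1632 to 283). Mrps6 went from 715 to 1991 and Mrpl54 from 1113 to 1429. The 17 sites of clustered histone genes, which hold many near-identical copies with uncertain read assignment, had a median of −1.50, with 1 kept, 1 lost and 1 gained.

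Among the histone sites with the highest endogenous signal, that of Hist1h2ac and Hist1h2bc was lost (435 to 1398) and that of Hist1h2ap was kept (475 and 380). The sites at Hist1h2ah and Hist1h2bg had ranks of 593 and 387 and of 599 and 858. The proteasome and ubiquitin list had 6 sites with a median of −1.84, and 2 of them were lost. Ubb, a ubiquitin gene, had ranks of 474 and 1105, and Psmd3, a proteasome subunit, 1206 and 1383. The pluripotency list had 6 sites with a median of −2.23. Tbx3 (155 to 1529) and Pou5f1, which encodes OCT4 (396 to 1202), were lost, while Mycn went from 587 to 1972 and Klf2 from 601 to 840. The 2 other sites were higher in rank in the rescue, Klf5 (1895 to 829) and Klf4 (2023 to 1484). The HSF family had 2 sites. Hsf4 had signals of 23.4 and 2.06 and ranks of 84 and 715, and Hsf1, at a start beside Bop1, was near the end of both rankings at 2120 and 1932.

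None of the 10 kept sites named here held an element. These sites at coding starts, with the lowest sum of both ranks, were those at AW822073, Crebzf, Cbx8, Msx1, Tbl1xr1, Cic, Phf21a, Impact, Tfap2a and Pax9. Crebzf, a bZIP transcription regulator, had signals of 30.4 and 23.6 and ranks of 49 and 12. AW822073 had signals of 68.1 and 6.15 and ranks of 17 and 40. Cic, a transcriptional repressor, had ranks of 133 and 32, and Tbl1xr1, a subunit of a corepressor complex, 117 and 31. Phf21a and Impact went from rank 170 to 19 and from 194 to 17. All 6 sites were also among the highest 25% with anti-HA.

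The other 4 genes are developmental regulators, and with anti-HA their order was another one. Cbx8, a subunit of a Polycomb complex, had signals of 32.8 and 5.52 and ranks of 44 and 56, but rank 809 with anti-HA. Msx1, Tfap2a and Pax9, transcription factors of limb, craniofacial and tooth development, had endogenous ranks of 61, 68 and 96 and rescue ranks of 44, 144 and 137. With anti-HA they ranked 1356, 1527 and 1403. In mitotic endogenous cells all 4 ranked between 993 and 1916. These 4 sites were thus in the highest 25% of both asynchronous tracks made with the HSF2 antibody, and outside it with anti-HA and in mitotic endogenous cells.

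The very highest sites of the rescue were mostly short and away from coding starts. Of its 20 highest sites, 17 lay away from coding starts, 16 were at most 1 kb wide, and all 20 were in the highest 25% of the endogenous track. The 20 highest endogenous sites included 10 away from coding starts and 7 at most 1 kb wide. Among the 100 highest sites, 42 of the rescue and 66 of the endogenous track lay away from starts, and 27 and 24 were at most 1 kb wide. None of the 20 highest rescue sites held an element, whereas 11 of the 20 highest endogenous sites did. Among the 100 highest, 1 of the 98 rescue sites with sequence held one, and 41 of the endogenous sites. The 5 highest rescue sites away from starts, added after their values were seen, were chr2:98663689-98664090, chrY:4036379-4036748, chr4:153153035-153153942, chr10:85025974-85026270 and chr5:60042719-60043085. Their rescue signals ran from 42.7 to 150 and their endogenous signals from 99.7 to 142. They ranked 1 to 5 in the rescue and 1, 2, 3, 4 and 8 in the endogenous track, and all were among the 9 highest with anti-HA. Between 7.41% and 65.4% of their bases are repeat-masked, and the part of repeats or uneven mappability in their signal was not tested. Among the 100 highest endogenous sites, 40 of the 59 without an element were kept and 27 of the 41 with one were lost.

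Most gained sites, which have low endogenous ranks by definition, lay at promoters. Of the 185, 163 reached a coding start within 1 kb (88.1%, Wilson 82.7% to 92.0%), beside 72.9% of all sites. The share was 57.5% for the kept (50.0% to 64.6%) and 51.5% for the lost (45.5% to 57.5%). Kept and lost sites all belong to the 533 highest endogenous sites, of which 54.2% reached a start, a share inside both intervals. Gained sites belong to the 533 highest rescue sites, of which 76.2% reached one. The share among all sites of low endogenous rank, the other condition for gained sites, is not given here. The 8 largest rises among the 100 highest rescue sites at coding starts were at Cnpy3, Nr1d2, Smarca4, Trim41, Usp32, Slc5a6, Nectin2 and Stt3a. Those at Nectin2 and Stt3a were in the upper 50% of the endogenous track and did not count as gained. Cnpy3, a chaperone for Toll-like receptors, had signals of 2.43 and 4.78 and went from rank 1643 to 77. Nr1d2, the circadian repressor REV-ERBβ, had signals of 3.62 and 5.19 and went from rank 1223 to 62. Smarca4, the ATPase BRG1 of chromatin remodelling complexes, had signals of 3.55 and 4.50 and went from 1243 to 90. None of the 8 held an element.

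Over the 8 named rises the log2 ratio ran from 0.05 to 0.97, and over the 8 named falls from −6.72 to −4.36. Relative to the median log2 ratio of all sites, these were 1.35 to 2.27 and −5.42 to −3.07. Trim41 and Usp32, ubiquitin pathway enzymes, went from rank 1214 to 87 and from 1122 to 60. The vitamin transporter gene Slc5a6, which shares its site with Atraid, went from 1114 to 97. Nectin2, a cell adhesion gene, went from 989 to 39, and Stt3a, the catalytic subunit of an oligosaccharyltransferase, from 1048 to 99. With anti-HA, the 8 sites ranked between 90 (Nr1d2) and 953 (Slc5a6). Among the 100 highest rescue sites, the 3 largest rises away from coding starts were chr12:67059163-67059816 (rank 1237 to 38), chr1:195240818-195242426 (803 to 27) and chr19:8251874-8252568 (825 to 98). Of the first, 82.3% is repeat-masked.

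Other tracks over the same sites gave a readout that the sorting did not use. With anti-HA on the HA-tagged Halo-HSF2, where construct and antibody both differ from the rescue, 209 of the 260 lost sites were in the lower 50% (80.4%, Wilson 75.1% to 84.8%) and 17 in the highest 25% (6.54%). For all sites in the highest 25% of the endogenous track, these shares were 55.2% and 28.3%. Of the kept sites 64.9% were in the highest 25% with anti-HA, and of the gained sites 37.8%, beside 54.4% of the highest 25% of the rescue. At Hsp90aa1 the anti-HA signal was 1.16 (rank 1254), at Stip1 1.42 (rank 1009) and at Hsph1 1.55 (rank 909), near the anti-HA median site of 1.36. Of the 13 lost chaperone sites, 2 were in the highest 25% with anti-HA, those at Hspbp1 (rank 118) and Hspa8 (rank 514). In mitotic cells, 54.2% of the lost sites were in the highest 25% for endogenous HSF2 and 3.46% in that of the rescue. For all sites in the highest 25% of the asynchronous endogenous track, these were 56.7% and 23.1%. For the construct with the DNA-binding domain alone, measured with anti-HA, 81.9% of the lost sites were in the lower 50%. Of the highest endogenous 25% as a whole, 56.3% were. The tracks of the rescue and of the constructs with anti-HA share the knockout line, and the endogenous tracks share wild type cells, so these comparisons do not separate the construct from the line.

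**Figure D4:**
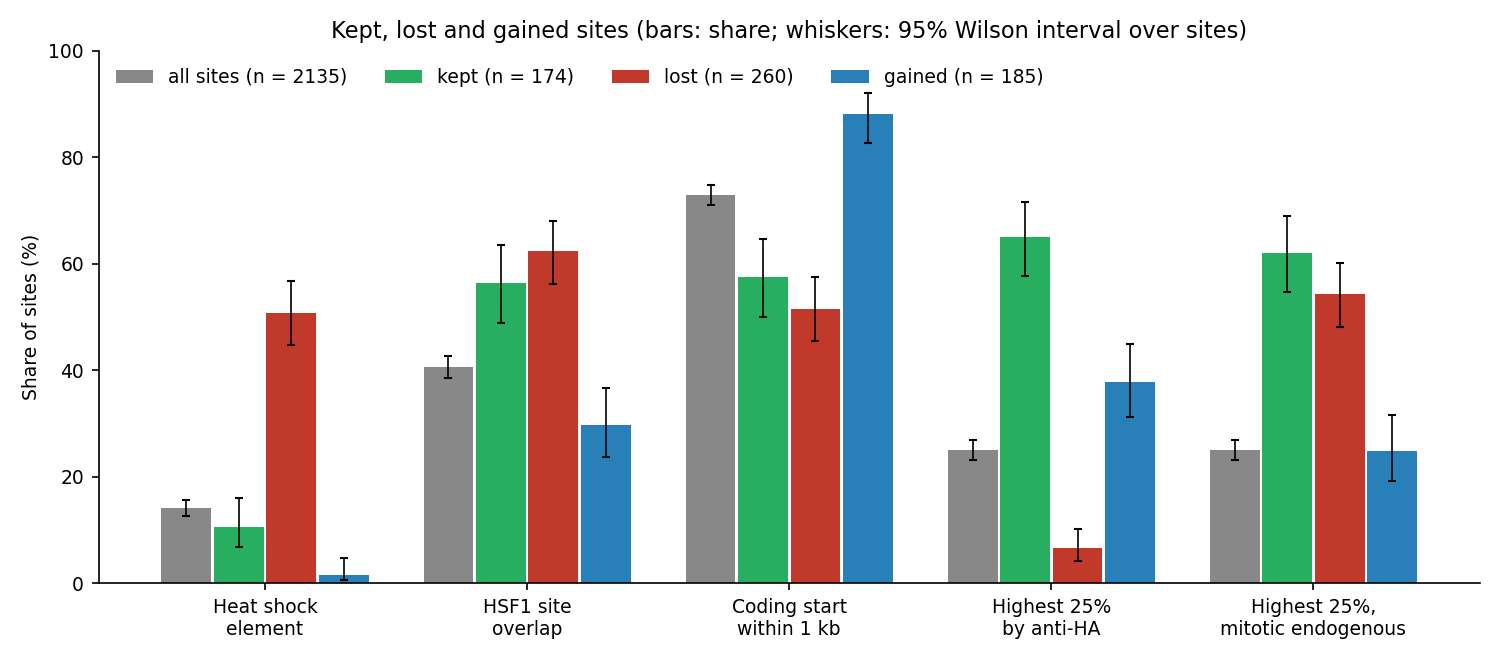
Share of all, kept, lost and gained sites (bars, percent of sites, axis from 0) that hold a heat shock element, overlap an HSF1 site, reach a coding start, or lie in the highest 25% with anti-HA or for mitotic endogenous HSF2. Whiskers are 95% Wilson intervals over sites, and element shares use the sites with reference sequence. The element share is 50.8% for lost, 10.5% for kept and 1.62% for gained sites, and 6.54% of the lost sites lie in the highest 25% with anti-HA.

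Sites of endogenous HSF1, called in wild type cells, overlapped both lost and kept sites. An HSF1 site overlapped 162 of the 260 lost sites (62.3%, Wilson 56.3% to 68.0%), 98 of the 174 kept (56.3%, 48.9% to 63.5%) and 55 of the 185 gained (29.7%, 23.6% to 36.7%), beside 40.7% of all. The lost and kept sites all belong to the 533 highest endogenous sites, of which 57.2% overlapped one, a share inside both intervals. The gained sites belong to the 533 highest rescue sites, of which 46.7% overlapped one, a share above the interval of the gained. The median HSF1 signal at the overlapping site was 5.01 for lost, 13.1 for kept and 8.98 for gained sites. HSF1 occupancy of the knockout line was not analysed here.

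Base composition and width moved with the sorting. The median CpG count per 100 bases was 3.17 for lost, 4.18 for kept and 5.21 for gained sites, beside 4.41 for all. The median width was 2088 bp for lost, 2005 bp for kept and 2248 bp for gained sites. Of the kept sites 19.5% were at most 1 kb wide, beside 10.0% of the lost and 1.08% of the gained. Among sites at most 2 kb wide the element was in 51.6% of the lost and 4.71% of the kept. The part of base composition and width in the ranks was not tested.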

How the data were processed

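The values are coverage signal. Per the study's methods, the authors aligned reads to mm10 with Bowtie2, kept PCR duplicates and scaled coverage by Drosophila spike-in reads. That the deposited signal over each site is a mean of the replicate tracks was read from the column names. Sites were called by the authors in the asynchronous and mitotic HSF2 profiles and combined. deepTools and bedtools are also named in the submitters' processing notes. The depth of the endogenous and rescue libraries is not given in the sources used here, and the read totals that the study lists for the anti-HA libraries were not used, so no interval that needs depth was given.

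From the deposited signal, the log2 ratio of rescue over endogenous HSF2 was computed without a pseudocount, along with ranks within each column. Columns hold means over replicates, so no test was run. Medians carry order-statistic intervals and shares carry Wilson intervals over sites, which are not independent replicates. Sites were assigned to protein-coding transcript starts within 1 kb (GENCODE M21) and searched for elements in the GRCm38.p6 reference. Promoters were RefSeq's. The 4 sites on unplaced sequence had no sequence.

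Named were the 10 kept sites at coding starts with the lowest rank sum, the 8 largest falls and 8 largest rises among the 100 highest sites of either track at coding starts, 3 of each away from starts, all genes of the HSP70, HSP90 and HSF lists, and up to 4 of each other list. Some sites that this rule names are not reported here. The members and gene lists were chosen with earlier results of these data known. The alternatives tried were pseudocounts, a minimum signal, merged sites, signal times width, narrow sites, leaving out the highest sites or the sex chromosomes, anti-HA for the rescue, the endogenous signal of the site list, other rank limits, distances and element patterns. Calculations were tested on simulated data. Python 3.11.15, numpy 2.4.6, pandas 2.3.3, scipy 1.17.1, pysam 0.24.0, samtools 1.23.1 and matplotlib 3.10.9 were used.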

Additional observations from a re-analysis of the deposited data

How the results depend on the processing

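No paired analysis was possible because the columns hold means over replicates, and for the same reason no replicate could be left out. Of 88 values recomputed for the main comparisons, 63 stayed within their interval or within 1.5 times their count. Among the 63 are the rank correlation and the kept, lost and gained counts under both pseudocounts. A constant added to both signals cannot change these, so they are no check. The median log2 ratio was −0.89 with 1 added to both signals, −1.39 with anti-HA for the rescue and −0.77 with the endogenous signal of the site list, so its size depends on the scaling. The rank correlation was 0.10 with a mean signal of at least 1 and 0.10 among sites at most 2 kb wide, 0.075 with anti-HA, and 0.39 with signal times width, which counted 112 gained sites. Narrow sites gave 57 kept, 99 lost and 67 gained of 728 sites, since fewer sites were ranked, and the highest 10% gave 48, 100 and 39. Within 5 kb of a start were 66.7% of kept and 61.2% of lost sites. With 1 mismatch the element share was 27.9% of kept, 75.8% of lost and 24.3% of gained sites, and with 2 units 58.7%, 88.1% and 58.9%. Among narrow sites it was 4.71% of kept and 0 of 70 gained. With anti-HA, 46.3% of lost sites held an element, and with signal times width 19.4% of kept sites. Of 514 values for single sites and lists, 52 moved without a change of sign, among them with signal times width Hsp90aa1 (75.7% to 6.04% of sites), Hspa8 (54.6% to 2.90%), Hspd1 (62.8% to 24.2%) and Fkbp4 (33.4% to 8.85%). The change of rank, in percent of sites, turned sign with anti-HA at 7 of the 33 chaperone sites: Ahsa2 (−2.15), Dnajb11 beside Tbccd1 (9.51), Stub1 (10.3), Hspa9 (−3.00), Dnajc16 beside Casp9 (20.7), Cct7 (−6.42) and Hspbp1 (−1.45). Leaving out repeat-masked sites and the chaperone sites was added after seeing the data, as were the anti-HA, highest-site and width settings for the element share and the width setting for the chaperone sites.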

Other observations

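Genes of developmental transcription factor families were chosen as a list after the values of Msx1, Tfap2a and Pax9 had been seen, so the counts describe these tracks only. They had 28 HSF2 sites at coding starts, and all 28 were in the highest 25% of the endogenous track. In the rescue with anti-HSF2, 14 of them were kept (50.0%) and 7 were lost (25.0%), beside 32.6% and 48.8% of the 533 sites in the highest endogenous 25%, and 2 held an element. Their median rank was 164 for endogenous HSF2, 516 in the rescue and 1806 with anti-HA. Ebf3 had ranks of 172, 89 and 1446 in these 3 tracks and Dlx1 99, 226 and 1287. Otp (59, 1235 and 1876) and Hoxb3 (275, 2085 and 1954) were lost. In the mitotic endogenous track the 28 sites ranked from 514 to 2131 with a median of 1943. The site at Irx5 was the 1 member in the highest 25% there (514) and with anti-HA (457).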
